A study of Mus musculus with 10 samples.

Results

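The ERK feedback genes described here are 9: the phosphatase genes Dusp4, Dusp5 and Dusp6, the Sprouty genes Spry2 and Spry4, the Sprouty-related genes Spred1 and Spred2, and the PEA3 transcription factor genes Etv4 and Etv5. They were chosen by symbol, as ERK-induced genes and inhibitors of the same pathway, and every probe set whose platform annotation names exactly 1 of them was taken. That gave 27 of the 45101 probe sets on the array. The brightest probe set of a gene, by its mean of all 10 arrays, stands for that gene. This choice uses the overall level but not the groups, so levels are given as description. All 9 members, of 18193 genes with a probe set, lay above the dim level of 4.559 on the log2 scale, set so that 40% of probe sets lie under it.

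BMEL cells, a bipotential mouse line of embryonic liver origin with hepatocyte and bile duct potential, were transfected with a locked nucleic acid oligonucleotide by Oligofectamine. In 5 arrays the oligonucleotide was antisense to miR-30a (titled ASO-30a), and in 5 it was a scrambled control (titled Scrambled). Both groups therefore carry a transfected oligonucleotide and differ, per the labels, only in its sequence. The study used a single cell line. Nothing in the labels says that replicates came from separate cultures, so p-values reflect the spread between arrays, and that spread could be technical. The level of miR-30a itself was not analysed here.

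ERK is the last kinase of a cascade that runs from growth factor receptors through RAS, RAF and MEK. Active ERK switches on genes that in turn restrain it: dual-specificity phosphatases remove its activating phosphates, and Sprouty and SPRED proteins act upstream, on the route from receptor to RAF. The PEA3 factors are ETS-type transcription factors that commonly rise with fibroblast growth factor and ERK signalling, and in embryonic liver this cascade carries signals from growth factors that drive hepatoblast growth.

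miR-30a represses transcripts mainly through its seed, bases 2 to 8, which is shown in capitals because it is shared with other microRNAs. Of the mature mouse sequences in the RefSeq table used here (GRCm38.p6), 4 names carry this seed. The 3 of these named miR-30 are printed 5′ to 3′, and members of the family absent from that table are not shown. miR-30e-5p differs from miR-30a-5p at 1 base and miR-30c-5p differs by 6, counted by position with its additional base.
mmu-miR-30a-5p: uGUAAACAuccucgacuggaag
mmu-miR-30e-5p: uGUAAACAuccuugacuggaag
mmu-miR-30c-5p: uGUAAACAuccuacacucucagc

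Across the array, medians lay between 5.21 and 5.24 on the log2 scale and any pair of arrays correlated at 0.996 or above over probe sets. The epithelial keratin genes Krt8, Krt18 and Krt19 were among the brightest genes, at 13.77, 13.71 and 13.48, and Cdh1, Hnf4a and Foxa2 lay at 11.21, 10.68 and 10.32. Alb, the hepatocyte marker albumin, was near the dim level at 4.71, and Afp and Epcam were at 6.38 and 6.33. None of the 10 liver epithelium markers measured was called. Of the 10, 1 had an unadjusted limma p under 0.05, against 12.9% of all genes, and the same 1 had groups without overlap, against 3.92%. This was Sox9, at a level of 7.27, with a change of 0.17 (limma adjusted p = 0.0662). Of markers of mesenchymal, endothelial, and blood and macrophage cells, 5 of 6, 2 of 4 and 2 of 4 lay above the dim level, and the mean level of each list overlapped between the groups. The blood and macrophage list averaged 4.74 to 4.91 in scrambled and 4.79 to 4.96 in antisense arrays. Its member Cd68 was called higher (0.39, limma adjusted p = 0.0176), while Csf1r, at a level of 6.44, had a change of 0.054 (limma adjusted p = 0.839), and Ptprc and Adgre1 were under the dim level. The part of such cells in the results was not tested.

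With the antisense oligonucleotide 2 of the 9 members rose and none fell: Dusp5 by 0.29 on the log2 scale, a 1.22-fold difference, and Etv4 by 0.37, a 1.29-fold difference. The other 7 had changes from 0.0010 to 0.13 and did not pass the test. The test was limma over 12633 genes, with Benjamini-Hochberg adjusted p-values under 0.05 called. It called 193 genes, or 1.53% of those tested, 1.16% higher and 0.372% lower. The groups did not overlap for the same 2 members, against 3.92% of all genes tested. The median change of the 9 members was 0.053, against 0.0084 over all genes, and 9 of 9 lay above 0 (8 with arrays centred on their medians, where Spry4 was at -0.0018), while 44.9% of all genes lay below 0. Since the members were chosen with results of these data known, these counts are descriptions. In RNA from whole cultures, a difference in the number of cells of a kind and a difference in RNA per cell cannot be told apart.

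**Figure D1:**
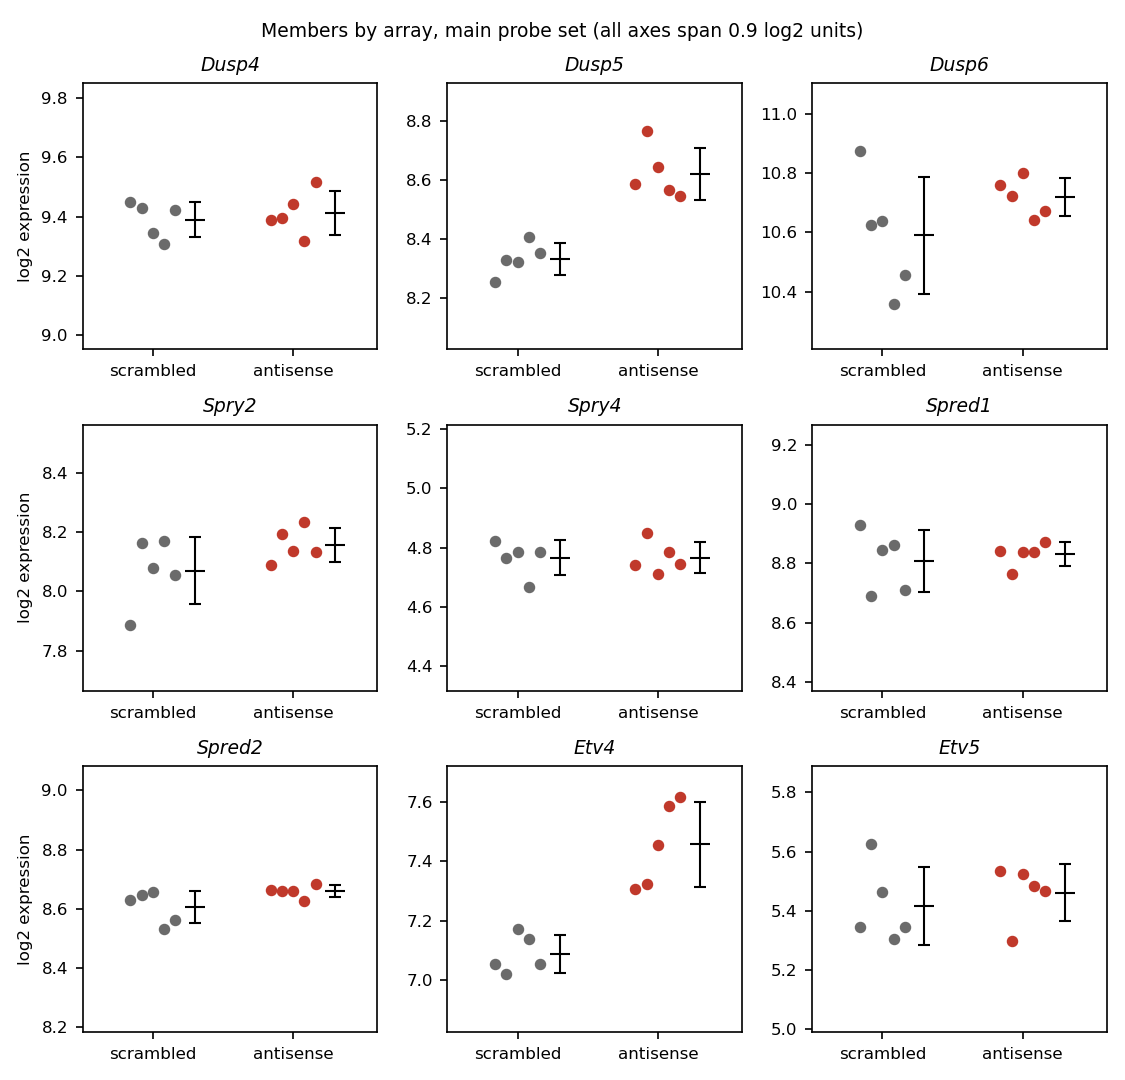
Log2 expression of the 9 members in each of the 5 scrambled (grey) and 5 antisense (red) arrays, main probe set of each gene, with the group mean and SD (black bars) and every axis spanning 0.9 log2 units. The 5 antisense points lie above the 5 scrambled points for Dusp5 and Etv4, and the groups overlap for the other 7 members.

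Dusp5 encodes a nuclear phosphatase that is selective for ERK. Its log2 levels in scrambled arrays were 8.25, 8.33, 8.32, 8.41 and 8.35 for replicates 1 to 5, and in antisense arrays 8.59, 8.76, 8.64, 8.57 and 8.55. The lowest antisense array thus lay above the highest scrambled array, and antisense replicate 2 was the highest of the 10. The group means were 8.33 ± 0.055 (SD, n = 5) and 8.62 ± 0.088 (SD, n = 5), a change of 0.29 (SE 0.048, 95% interval 0.18 to 0.39, limma adjusted p = 0.0122). The gene has 1 probe set on the array, so no second measurement of it was available here. Its call held in all 17 alternatives, with adjusted p from 0.00292 to 0.037.

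The promoter of Dusp5 is shown because it belongs to the phosphatase gene that rose and holds a feature that few promoters share. It covers chr19:53528895-53529194 on the plus strand (GRCm38.p6, RefSeq), from 250 bases before the annotated transcript start into the transcript. Capitals mark 2 adjoining CArG boxes, the sequence recognised by serum response factor, which works with ERK-activated ternary complex factors.
Dusp5 promoter: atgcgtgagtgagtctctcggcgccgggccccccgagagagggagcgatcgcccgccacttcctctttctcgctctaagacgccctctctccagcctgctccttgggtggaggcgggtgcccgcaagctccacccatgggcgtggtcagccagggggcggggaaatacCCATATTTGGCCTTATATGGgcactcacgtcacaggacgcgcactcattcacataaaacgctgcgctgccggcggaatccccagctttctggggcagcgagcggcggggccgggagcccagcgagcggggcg
The matches are CCATATTTGG, from 82 to 73 bases before the start, and CCTTATATGG, from 72 to 63 bases before it. Both strands were searched. Of 32851 promoters of the same length, 1.63% held at least 1 CArG box and 0.0183% held 2 or more. Promoters were in the table for 6 of the 9 members, and Dusp5 was the only one of these 6 with a CArG box. Etv4, the other member that rose, had no promoter in the table, like Dusp4 and Spry4. Dusp5 and Etv4 thus could not be compared for this feature. The sequence CGGAAG, the only form of ETS site searched for, was found in the promoters of Dusp6, Spred1 and Spred2, and in 16.9% of all promoters. Other forms of ETS site, such as the AGGAAG on the other strand of the Dusp5 promoter, were not counted. The AP-1 site TGANTCA and the cyclic AMP response element TGACGTCA, held by 7.81% and 1.79% of all promoters, were in none of the 6. Dusp1 and Lif, genes outside the members that were also called, had promoters without a CArG box. That of Dusp1 held 1 cyclic AMP response element, and that of Lif held 1 CGGAAG and 1 AP-1 site. These matches describe the letters of the window and are not measured binding sites. The Dusp5 promoter was picked with its rise and its boxes known, so the share of such promoters is a description. Whether the boxes bear on the rise was not tested.

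Dusp6 encodes the cytoplasmic ERK phosphatase that is a widely used readout of ERK activity, and its probe set was the brightest of the members, above 96.3% of all probe sets. Its levels in scrambled arrays were 10.88, 10.62, 10.64, 10.36 and 10.46, and in antisense arrays 10.76, 10.72, 10.80, 10.64 and 10.67. The antisense arrays all lay above the scrambled mean of 10.59, but scrambled replicate 1 was the highest of the 10, so the groups overlapped. The SD was 0.199 (n = 5) in scrambled and 0.065 (n = 5) in antisense arrays. The change of 0.13 (SE 0.080) did not pass the test (limma adjusted p = 0.558), and its 95% interval ran from -0.045 to 0.30.

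Dusp4, a nuclear phosphatase for ERK and related kinases, showed no such separation. Its levels were 9.45, 9.43, 9.34, 9.31 and 9.42 in scrambled and 9.39, 9.39, 9.44, 9.32 and 9.52 in antisense arrays, so each group spanned much of the other's range. The change was 0.022 (SE 0.046, limma adjusted p = 0.908), with a 95% interval from -0.077 to 0.12. Dusp4 and Dusp6 have 1 probe set each.

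Etv4 and Etv5 encode closely related PEA3 transcription factors. For Etv4 the scrambled arrays read 7.05, 7.02, 7.17, 7.14 and 7.05, and the antisense arrays 7.31, 7.32, 7.45, 7.59 and 7.62. All antisense arrays lay above all scrambled arrays, and the antisense arrays spread more widely, with replicates 4 and 5 highest. The means were 7.09 ± 0.065 (SD, n = 5) and 7.46 ± 0.144 (SD, n = 5), a change of 0.37 (SE 0.064, 95% interval 0.23 to 0.51, limma adjusted p = 0.0134). The second probe set of Etv4 averaged 4.30, under the dim level, and differed by 0.023 between the groups. Averaging it with the first gave a change of 0.20 and an adjusted p of 0.0914, the only alternative of 17 in which the call was lost.

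Etv5 was much dimmer on its probe sets, which had levels of 5.44, 5.33 and 4.59. On the main probe set the scrambled arrays read 5.35, 5.63, 5.46, 5.30 and 5.35, and the antisense arrays 5.53, 5.30, 5.52, 5.48 and 5.47. The groups overlapped over nearly their whole range. The change was 0.044 (SE 0.065, limma adjusted p = 0.852), with a 95% interval from -0.097 to 0.19. The other probe sets had changes of 0.15 and -0.019, and neither passed.

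The Sproutys, adaptor-like inhibitors of receptor tyrosine kinase signalling, did not pass the test. Spry2 read 7.89, 8.16, 8.08, 8.17 and 8.06 in scrambled and 8.09, 8.19, 8.14, 8.24 and 8.13 in antisense arrays. The antisense array was the higher in all 5 same-numbered pairs, with scrambled replicate 1 lowest, yet the groups overlapped. The change was 0.086 (SE 0.055, limma adjusted p = 0.569, 95% interval -0.032 to 0.21), and the second, dimmer probe set at a level of 5.20 had a change of -0.057. Spry4 was near the dim level on its main probe set (4.77 in both groups) and its 3 other probe sets were under it, so its change of 0.0010 (95% interval -0.090 to 0.092) describes a signal close to the lower end of the array.

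SPRED proteins hold the RAS-inactivating protein neurofibromin at the membrane. Spred1 had 8 probe sets, 6 of them above the dim level at 5.84 to 8.82. On the main one the scrambled arrays ranged from 8.69 to 8.93 and the antisense arrays from 8.76 to 8.87, and the change was 0.023 (SE 0.050, limma adjusted p = 0.914). The 6 gave changes from -0.033 to 0.13. Spred2 had 5 probe sets above the dim level, with changes from -0.077 to 0.098, 3 above 0 and 2 below. On its main probe set the scrambled arrays lay between 8.53 and 8.66 and the antisense arrays between 8.63 and 8.68, with a change of 0.053 (SE 0.038, limma adjusted p = 0.622). The antisense array was the higher in all 5 same-numbered pairs, but the ranges overlapped.

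Over all probe sets of the members, 21 of 27 were above the dim level, and 16 of these had a change above 0 and 5 below. In a limma fit over 22744 probe sets, 2 of the 21 were called, those of Dusp5 and Etv4 (adjusted p = 0.0224 and 0.0245), against 0.686% of all probe sets tested. The groups did not overlap for these 2, against 3.23% of all probe sets tested. With 1 array left out, 0 to 2 of the member probe sets were called in this stricter fit. Both calls were lost without scrambled replicate 1 or 2 or antisense replicate 3, both held without antisense replicate 1 or 2, and 1 of the 2 was lost in each of the other 5 fits.

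**Figure D2:**
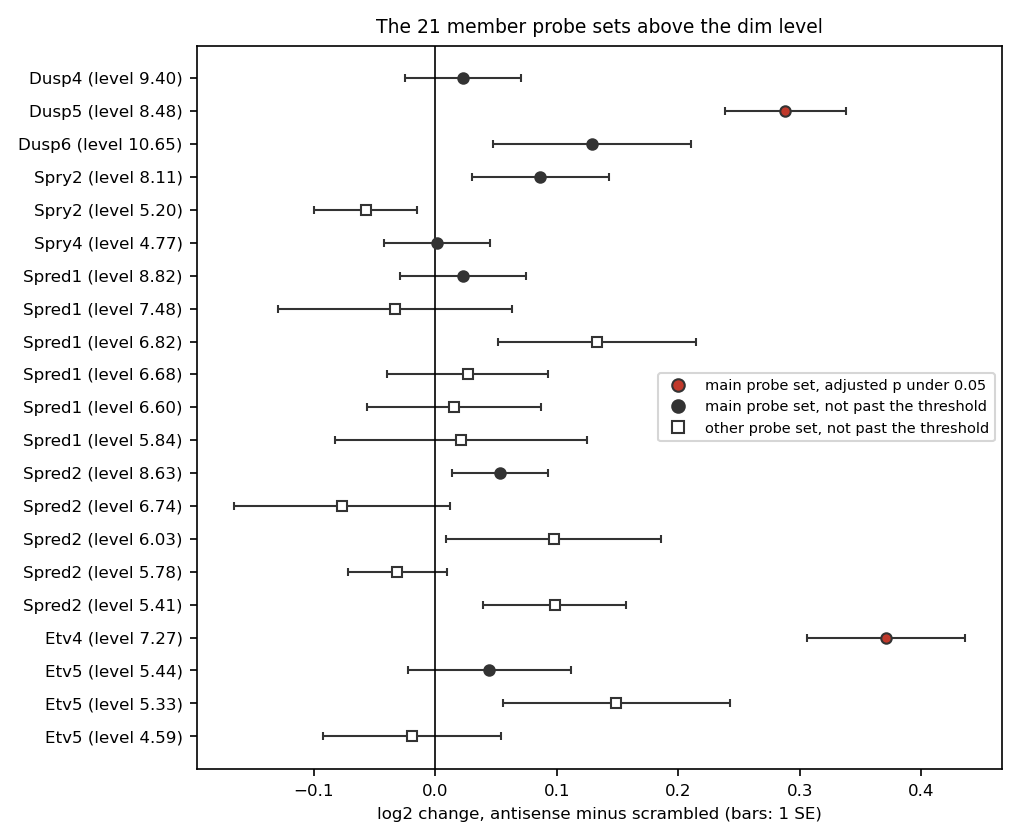
Log2 change (antisense minus scrambled, bars of 1 SE) of the 21 member probe sets above the dim level, each labelled with its gene and mean log2 level, with circles for the main probe set, squares for others and red for an adjusted p under 0.05. Dusp5 at 0.29 and Etv4 at 0.37 stand to the right of the other 19, which lie between -0.077 and 0.15.

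Whether relatives changed by different amounts was tested directly, as the log2 difference between the genes on each array, for all 6 pairs within the phosphatases, Sproutys, SPREDs and PEA3 factors. This was added after the values were seen. Etv4 gained 0.33 over Etv5, from a difference of 1.67 ± 0.164 (SD, n = 5) in scrambled to 2.00 ± 0.151 (SD, n = 5) in antisense arrays. It was larger in the antisense array of all 5 same-numbered pairs. A two-sided exact permutation test over all 10 arrays, which did not use these pairs, gave p = 0.0159 (adjusted over the 6 pairs of genes 0.0476). Dusp5 gained 0.27 over Dusp4, also in all 5 pairs (exact permutation p = 0.0159, adjusted 0.0476). The smallest p that permuting all 10 arrays allows is 0.00794, while an exact test within the 5 pairs cannot pass the threshold. Dusp5 against Dusp6 gave 0.16 (exact permutation p = 0.254, adjusted 0.381), larger in 3 of 5 pairs, so a change in Dusp5 beyond that of Dusp6 was not shown. The other pairs gave 0.11 for Dusp6 minus Dusp4, 0.085 for Spry2 minus Spry4 and 0.030 for Spred2 minus Spred1, with adjusted p from 0.381 to 0.603 by the exact test. With 1 array left out, the adjusted p passed in 2 of 10 tests for Etv4 minus Etv5 and in 1 of 10 for Dusp5 minus Dusp4, with values up to 0.0952 for both. The signal of Etv5 was low, at 5.44 on its main probe set. Whether that probe set could show a rise like that of Etv4 was not tested.

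**Figure D3:**
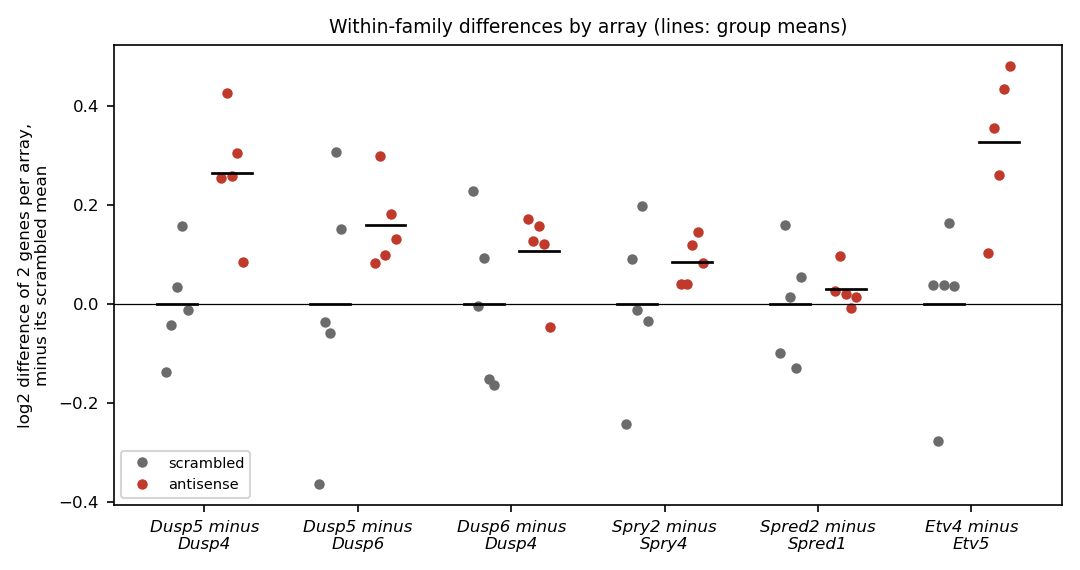
Log2 difference between 2 members of a family on each array, with the scrambled mean of each pair set to 0 (grey scrambled, red antisense, lines for group means). The antisense mean is 0.33 for Etv4 minus Etv5 and 0.27 for Dusp5 minus Dusp4, where 1 antisense array in each case lies within the scrambled range, and 0.030 to 0.16 for the other 4 pairs.

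Within the groups the members did not vary as a block. Over the 10 arrays, after each group's mean was removed, Dusp6 and Spred2 correlated at 0.72 and Dusp6 and Spry2 at -0.74, while Etv4 and Etv5 were at 0.036 and Dusp5 and Etv4 at -0.43. These are descriptions over arrays that share 1 normalization, with no test. Of 12624 genes outside the members, the profile of Etv4 over all 10 arrays was most like those of Sox13 (Pearson r = 0.986, Spearman rho = 0.964) and Plet1 (r = 0.983, rho = 0.976). Sox13 and Plet1 rose too, by 0.23 and 0.46 (limma adjusted p = 0.0241 and 0.00207), and with group means removed the r values with Etv4 were 0.935 and 0.945. With 1 array left out, Plet1 was called in 10 of 10 fits and Sox13 in 5 of 10, with adjusted p up to 0.0715 for Sox13 (lost without scrambled replicate 1 or 2 or antisense replicate 3, 4 or 5). Dusp5 was most like F2r, a thrombin receptor gene (r = 0.983, rho = 0.952), and Wnt7b, a Wnt ligand gene (r = 0.962, rho = 0.867), with within-group r of 0.898 and 0.820. Wnt7b rose by 0.28 (adjusted p = 0.0208), and F2r, at 0.13, did not pass (adjusted p = 0.0851). The call of Wnt7b was lost without scrambled replicate 3 or antisense replicate 4 (adjusted p up to 0.0575). These genes are the most alike of many and the r values carry no test. Likeness over all 10 arrays includes the difference between the groups. The calls of Sox13, Plet1 and Wnt7b therefore follow in part from how these genes were chosen, and are no separate result. For Dusp6 the nearest were Dpysl3 (r = 0.949, rho = 0.903) and Defa3 (r = 0.944, rho = 0.794), and for Spry2 they were Eif4e2 (r = 0.983, rho = 0.976) and Mrpl10 (r = 0.977, rho = 0.976). Slc41a1 led for Dusp4 (0.960), Cpeb2 for Spry4 (0.910), Slc22a5 for Spred1 (0.889), Tk2 for Spred2 (0.974) and Bicdl1 for Etv5 (0.853), by Pearson r over 10 arrays.

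Other genes of the same families were read from a list of 11, of which 9 were measured. Like the lists of cascade genes and other ERK-induced genes below, it was chosen with earlier results of these data known. The counts in these lists are descriptions. In this list 1 rose and none fell, against 1.16% of all genes called higher, with a median change of 0.038. Of the 9, 3 had an unadjusted p under 0.05, against 12.9% of all genes, and the groups did not overlap for the same 3 (Dusp1, Dusp7 and Dusp16), against 3.92% of all genes. Dusp1, an immediate early gene whose phosphatase acts on several MAP kinases, rose by 0.34 (SE 0.077, limma adjusted p = 0.0494). Its scrambled arrays read 8.95, 9.23, 9.10, 9.03 and 9.02 and its antisense arrays 9.29, 9.70, 9.37, 9.30 and 9.36, without overlap. The call varied with the setting, and 7 of 17 alternatives kept it. It held with the replicate block, trended robust variances, the 60% filter and the mean of probe sets (adjusted p = 0.00707, 0.0192, 0.0352 and 0.0453). It was also kept in 3 of 10 fits with 1 array left out (without scrambled replicate 2, antisense replicate 1 or antisense replicate 2), and the adjusted p ranged up to 0.112. It was lost with quantile normalization, median centring or no filter on dim genes (adjusted p = 0.0508, 0.0519 and 0.0685). Dusp7, a cytoplasmic ERK phosphatase gene, had a change of 0.22 (adjusted p = 0.0598) with groups that did not overlap, and it passed in 5 of 17 alternatives: quantile normalization, the 60% filter, trended robust variances, the mean of probe sets and without antisense replicate 1 (adjusted p = 0.0449, 0.0409, 0.0367, 0.0296 and 0.0305). With the replicate block it did not pass (adjusted p = 0.0624). Dusp16, a phosphatase gene for the JNK kinases, had a change of -0.12 (adjusted p = 0.185), also without overlap, and Spred3 one of 0.12 (adjusted p = 0.445). Spry1 had one of -0.0047.

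The cascade itself, from receptor adaptors to ERK-activated ETS factors, had 20 measured genes of 27 listed. None passed limma's test, and 0 of the 20 had an unadjusted p under 0.05, against 12.9% of all genes. The median change was 0.013. Those with the smallest p were Elk3 (0.11), a ternary complex factor, Sos1 (-0.080), a RAS exchange factor, the RAF kinase gene Araf (0.12) and the adaptor gene Gab1 (0.089). Map2k1 and Map2k2, the MEK genes, had changes of 0.038 and -0.010.

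Other genes that ERK induces had 15 measured of 16 listed, with 13 above 0 and 2 below and a median change of 0.13. Of the 15, 8 had an unadjusted p under 0.05, against 12.9% of all genes. The list was chosen with earlier results of these data known, so its counts are descriptions. After adjustment 1 gene rose and none fell, against 1.16% of all genes called higher: Lif, a cytokine gene, by 0.23 (SE 0.052, limma adjusted p = 0.0457). Its scrambled arrays read 7.58, 7.63, 7.54, 7.45 and 7.39 and its antisense arrays 7.66, 7.83, 7.76, 7.73 and 7.76. The groups did not overlap, though antisense replicate 1 lay close to scrambled replicate 2. Non-overlap held for 2 of the 15, Lif and Epha2, against 3.92% of all genes. The call was kept in 2 of 10 fits with 1 array left out (without scrambled replicate 2 or antisense replicate 1, adjusted p up to 0.112 over the 10), and on the average of its probe sets the change was 0.068 (adjusted p = 0.481). It was also lost with median centring or no filter (adjusted p = 0.0651 and 0.0728). The labels do not say what the replicate numbers mark. With the replicate number as a block 4 of the 15 rose, against 2% of all genes called higher in that fit: Lif, Fosl1 (0.23), Egr1 (0.24) and Junb (0.19), of which the last 3 encode immediate early or AP-1 factors (adjusted p with the replicate block = 0.0394, 0.0173, 0.0481 and 0.0436). Epha2, an ephrin receptor gene, had a change of 0.15 (adjusted p = 0.120) without overlap, and the abundant outputs Phlda1 and Ccnd1 had changes of 0.063 and 0.047.

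**Figure D4:**
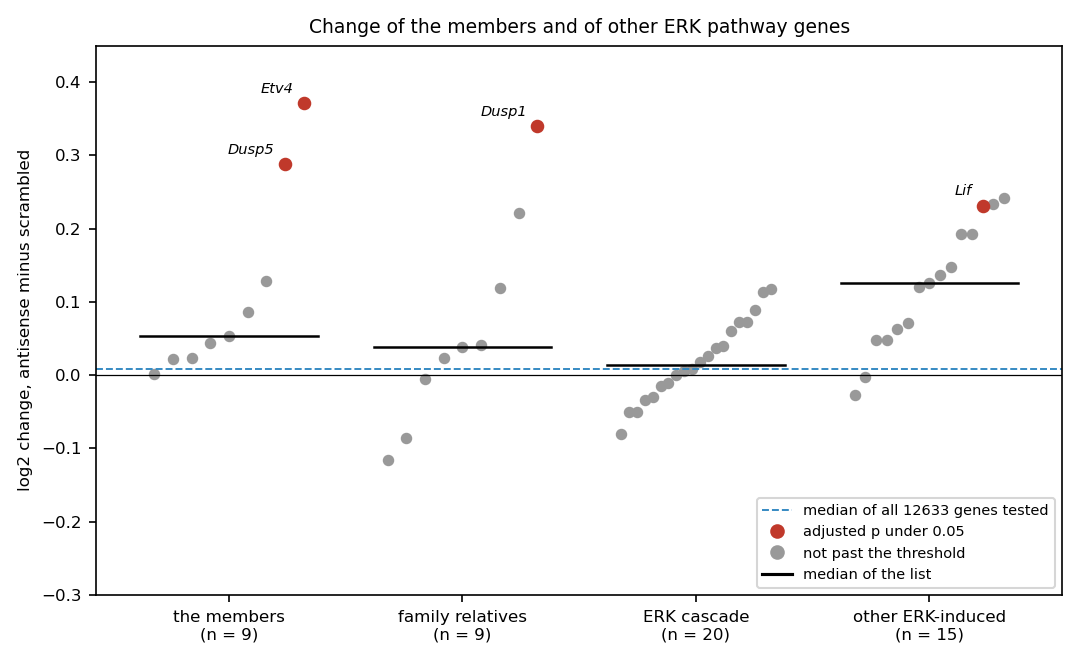
Log2 change (antisense minus scrambled) of each measured gene among the members and 3 lists of ERK pathway genes, in order of change within a list, with list medians (black lines), the median of all genes tested (dashed) and calls in red. Calls are Etv4, Dusp5, Dusp1 and Lif, and the 20 cascade genes have none and a median of 0.013.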

How the data were processed

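The authors deposited log2 expression for each probe set on each array. That the scale is log2 was read from the values, which reach 14.18, whereas natural logs of a 16-bit scanner could not pass 11.09. RNA was amplified and biotin-labelled, per the labels' protocols. How arrays were summarised and normalized is not given in the sources used here, so values were used unchanged. Groups and replicate numbers came from the titles. Probe sets with 1 annotated symbol were kept (34945 of 45101), and the brightest of each gene was tested where its mean passed 4.559, the 40% point of all probe sets. The fit was limma 3.58.1 in R 4.3.3 (lmFit, eBayes, two-sided, Benjamini-Hochberg). Figures used matplotlib 3.10.9. Differences within families were compared by exact permutation. Precision is limited by the number of arrays.

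The members and lists were chosen with earlier results of these data known. Named genes were the members, the 4 of each list with the smallest p, every called list gene, the 2 genes most like each member (for 5 members only the first is printed), and Krt8, Krt18, Afp and Alb. Krt19, Cdh1, Hnf4a, Foxa2, Sox9, Epcam, Cd68, Csf1r, Ptprc, Adgre1, Junb, Spry1, Map2k1, Map2k2, Phlda1 and Ccnd1 were added after their values were seen.

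Same-numbered arrays of the 2 groups had deviations from their group means that correlated at 0.172, 0.377, 0.112, 0.152 and 0.335 over genes, against -0.312 to 0.231 for other pairs. Of these, 0.172, 0.112 and 0.152 lay within the range of the other pairs, whose mean was -0.059. Same-numbered arrays were taken as pairs in the counts of pairs and in the replicate block. This rests on the values alone, because no label explains the numbers, and the values do not settle whether the pairs are real. The main fit did not use the pairs. Every SE, interval and adjusted p comes from unpaired groups unless the block is named. Simulated data for the antisense against scrambled comparison (12633 genes) had noise drawn independently for each gene and array. In them the fit recovered 60.2% of genes changed by 0.25 and 96.1% of those changed by 0.5 (log2), and 4.84% of calls were false. The simulation held no shared deviations of same-numbered arrays, so these rates may not carry over to the real arrays. Alternatives were a replicate block, quantile normalization, median centring, other filters, the mean of probe sets, trended robust variances and leaving out each array.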

Additional observations from a re-analysis of the deposited data

Results flagged for a closer look

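Of the 18 sets of 5 arrays (9 members, 2 groups), 1 held an array far from the rest: antisense replicate 2 was the lowest for Etv5, at 5.30, with the nearest other antisense array at 5.47. Chance alone places about 1 set in 20 past this limit, and the change of Etv5 did not pass the test with or without that array.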

How the results depend on the processing

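Dusp5 passed in all 17 alternatives and Etv4 in 16. With the mean of probe sets 1 member was called, since Etv4 missed the threshold. No other member passed in any alternative. Signs reversed for the members near 0: Spry4 was at -0.0018 with arrays centred on their medians, and with 1 array left out it ranged from -0.024 to 0.016, Spred1 from -0.0066 to 0.054 and Dusp4 from -0.0039 to 0.046. The genes called were 193 in all, 146 higher and 47 lower. With the replicate block they were 385, 253 and 132, of which 184 were among the 193, and the other ERK-induced genes had 4 calls; the block changed no call of a member. Trended robust variances gave 303 genes, 233 higher. With 1 array left out the counts ranged from 92 to 202 genes, 78 to 160 higher and 14 to 42 lower; they were 101, 95 and 92 without scrambled replicate 3 and antisense replicates 3 and 4, and 123 without antisense replicate 5. Member probe sets called ranged from 0 to 2, family relatives from 0 to 2 and other ERK-induced genes from 0 to 1. Family relatives had 0 calls with median centring or no filter and 2 with the 60% filter, the mean of probe sets or trended variances. Other ERK-induced genes had 0 with median centring, no filter or the mean of probe sets.

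For the differences within families, the mean of probe sets gave 0.27 for Dusp5 minus Dusp4 (adjusted p = 0.0952 by the exact test, the value itself unchanged since neither gene has a second probe set), 0.14 for Etv4 minus Etv5 (0.381) and -0.018 for Spry2 minus Spry4. With 1 array left out the ranges were 0.23 to 0.31, 0.26 to 0.38 and 0.025 to 0.13, and -0.0022 to 0.070 for Spred2 minus Spred1. These tests have fewer arrays and so fewer possible permutations. The pairs with the replicate block were not refitted, since an exact test within 5 pairs cannot pass the threshold.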
